A study of Homo sapiens with 6 samples.

Results

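The mitochondrial respiratory chain and the ATP synthase are built from nuclear and mitochondrial gene products, and 77 nuclear subunit genes of these 5 complexes were followed on 6 Affymetrix U133 Plus 2.0 arrays of SW-1990 cells. SW-1990 is an established human pancreatic adenocarcinoma line that was derived from a metastasis in the spleen. The cells were wild type until infected with a lentivirus that expressed a short hairpin RNA (shRNA), and both groups were selected for over 7 days in 1 µg/ml puromycin. In sh-Ctrl (3 arrays) the hairpin was scrambled, and in sh-PRLR (3 arrays) it targeted PRLR, the prolactin receptor. The labels give the arrays of a group as biological replicates and do not say whether the cells were pooled or clonal, or whether more than 1 hairpin was used against PRLR. The p-values measure the spread between these arrays, and having few arrays limits precision throughout. In RNA from a whole culture, fewer cells of a kind and less RNA per cell cannot be told apart.

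Members were chosen by symbol. Symbols of the families NDUFA, NDUFB, NDUFC, NDUFS, NDUFV, SDH, UQCR, COX4 to COX8 and ATP5, with CYC1 and without the NDUFAF assembly factors, matched 82 of the 19775 genes measured. Of these, 77 are subunit genes, read by 151 probe sets, and the other 5 are a pseudogene of ATP5MC2, a pseudogene of COX6A1 and 3 antisense or divergent transcripts, NDUFB2-AS1, NDUFV1-DT and NDUFV2-AS1. None of those 5 passed the test and they are left out from here on. Complex I contributed 32 genes, complex II 3, complex III 7, complex IV 17 and complex V 18. The name subunit genes is used here also for COX7A2L, a supercomplex factor counted with complex IV. It also covers ATP5IF1, an inhibitor counted with complex V. Where several probe sets read a gene, the one with the highest mean on the 6 arrays was used. The mitochondrially encoded subunits were not analysed here. NDUFAB1, a complex I subunit whose symbol lies outside the rule, had means of 13.76 and 13.62 in sh-Ctrl and sh-PRLR and did not pass.

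In the respiratory chain, complex I (NADH dehydrogenase) and complex II (succinate dehydrogenase) pass electrons to ubiquinone, complex III passes them on to cytochrome c, and complex IV (cytochrome c oxidase) reduces oxygen. Complexes I, III and IV pump protons across the inner mitochondrial membrane, and complex V, the ATP synthase, uses the returning protons to make ATP. Complex I has an N module that oxidises NADH, a Q module that reduces ubiquinone and a membrane arm that pumps protons. Nuclear respiratory factors and the PGC-1 coactivators are known to drive many of these genes together. Pancreatic cancer cells are known for glucose-fed glycolysis and also respire.

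Levels are deposited log2 expression values and differences are sh-PRLR minus sh-Ctrl on that scale. A value after ± is the SD of 3 arrays, and a standard error is written SE. A gene passed where its adjusted p was under 0.05 in limma with an intensity-dependent variance, adjusted over all 19775 genes by the Benjamini-Hochberg method. PRLR, averaged over its 7 probe sets, read 5.23, 5.03 and 4.79 on the control arrays and 3.94, 4.38 and 4.19 on the knockdown arrays. The groups did not overlap, and the difference of -0.85 reached the smallest two-sided p that an exact permutation of 3 against 3 arrays allows, 0.1. No single PRLR probe set passed. Arrays correlated at 0.928 to 0.936 across probe sets, and no array stood apart. The GAPDH 3′ minus 5′ signal was 0.191 to 0.277 in sh-Ctrl and 0.092 to 0.198 in sh-PRLR, and that of ACTB was 3.053 to 3.364 and 2.993 to 3.112, both with overlap. The part of these signals in the results was not tested. Of the epithelial markers, 6 of 6 were above the median gene level of 7.23, with EPCAM at 14.20 and KRT18 at 15.29 in sh-Ctrl, and CDH1 was lower in sh-PRLR by a difference of -0.17 (limma adjusted p = 0.0284). Of 6 fibroblast, 6 leukocyte and 4 endothelial markers, 1 each was above that level (COL1A1, CD79A and PECAM1) and none passed.

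Of the 77 subunit genes, 7 passed, 5 lower and 2 higher. The 5 genes that fell, NDUFB7, NDUFS7, NDUFA9, NDUFB10 and NDUFB11, all belong to complex I. The 2 that rose were COX7A2L, counted here with complex IV, and ATP5MC2, which encodes the c subunit of the ATP synthase rotor. No subunit of complexes II or III passed. Other complexes had genes that passed lower under other settings. These were UQCRQ of complex III, COX6A1 of complex IV and ATP5PB and ATP5PO of complex V under quantile normalisation (limma adjusted p = 0.0231, 0.0452, 0.0225 and 0.0379). The mean of all probe sets added UQCRB, UQCR10 and COX5A (limma adjusted p = 0.0376, 0.0398 and 0.0170). For UQCRB it includes 244293_at, at a level of 3.96, below the median gene level, with a difference of -2.15. The other UQCRB probe sets differed by -0.05, -0.26 and -0.13, and none passed by itself. For COX5A it includes 229426_at, at a level of 7.76 with a difference of -0.46, which did not pass by itself. Leaving out _x_at and _s_at probe sets added UQCR10 and ATP5IF1 (limma adjusted p = 0.0105 and 0.00280). Of the 5 genes that fell, NDUFA9 alone passed under that setting. The probe sets used for NDUFB7, NDUFS7, NDUFB10 and NDUFB11 all carry the suffix _s_at. The changes were small: among the 70 subunit genes above the median gene level, differences ran from -0.49 to 0.28 and 0 reached a 2-fold change. Over all 19775 genes, 4.32% passed lower in sh-PRLR and 3.34% higher, 7.66% in all, against 6.49% and 2.60% of the 77 subunit genes. Subunit genes give strong signals, and 68 of the 77 had a mean above 10. Among all genes above 10, 9.27% passed lower and 9.60% higher, against 4.41% and 2.94% of the 68 subunit genes. The order of the lower shares depended on the processing: above a level of 10, 16.2% of subunit genes passed lower against 10.1% of all genes under quantile normalisation, 11.8% against 6.88% with the mean of all probe sets, and 10.3% against 12.6% without the dimmest 40% of genes. Over all levels 13 subunit genes passed lower under quantile normalisation and 9 without the dimmest genes.

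Counting the arrays gave a more one-sided picture than the test. In 23 of the 77 subunit genes (29.9%) all 3 sh-PRLR values lay below all 3 sh-Ctrl values, and in 3 (3.90%) all lay above. The same held for 14.1% and 11.7% of all genes. Above a level of 10 the lower pattern was found in 30.9% of subunit genes and 22.7% of all genes, and the higher pattern in 3 of the 68 subunit genes and 21.2% of all genes. The mean itself was lower in sh-PRLR for 53 of the 77 subunit genes (68.8%), against 50.1% of all genes. The median difference was -0.0498 over the subunit genes and -0.0013 over all genes. Averaged over the 70 subunit genes above the median level, the arrays stood at 12.72, 12.77 and 12.82 with the scrambled hairpin and 12.71, 12.71 and 12.69 with knockdown, which differ by -0.0684 with no overlap. With limma's default settings, which give 1 common prior variance to dim and bright genes, 0.0202% of all genes passed and no subunit gene did. The unadjusted p was then under 0.05 for 8 subunit genes, against 24 with the intensity-dependent variance, and the adjusted p of the 7 genes lay between 0.124 and 0.211. Leaving out sh-Ctrl replicate 2 left 0 subunit genes that passed as lower, and leaving out sh-Ctrl replicate 3 left 1.

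**Figure D1:**
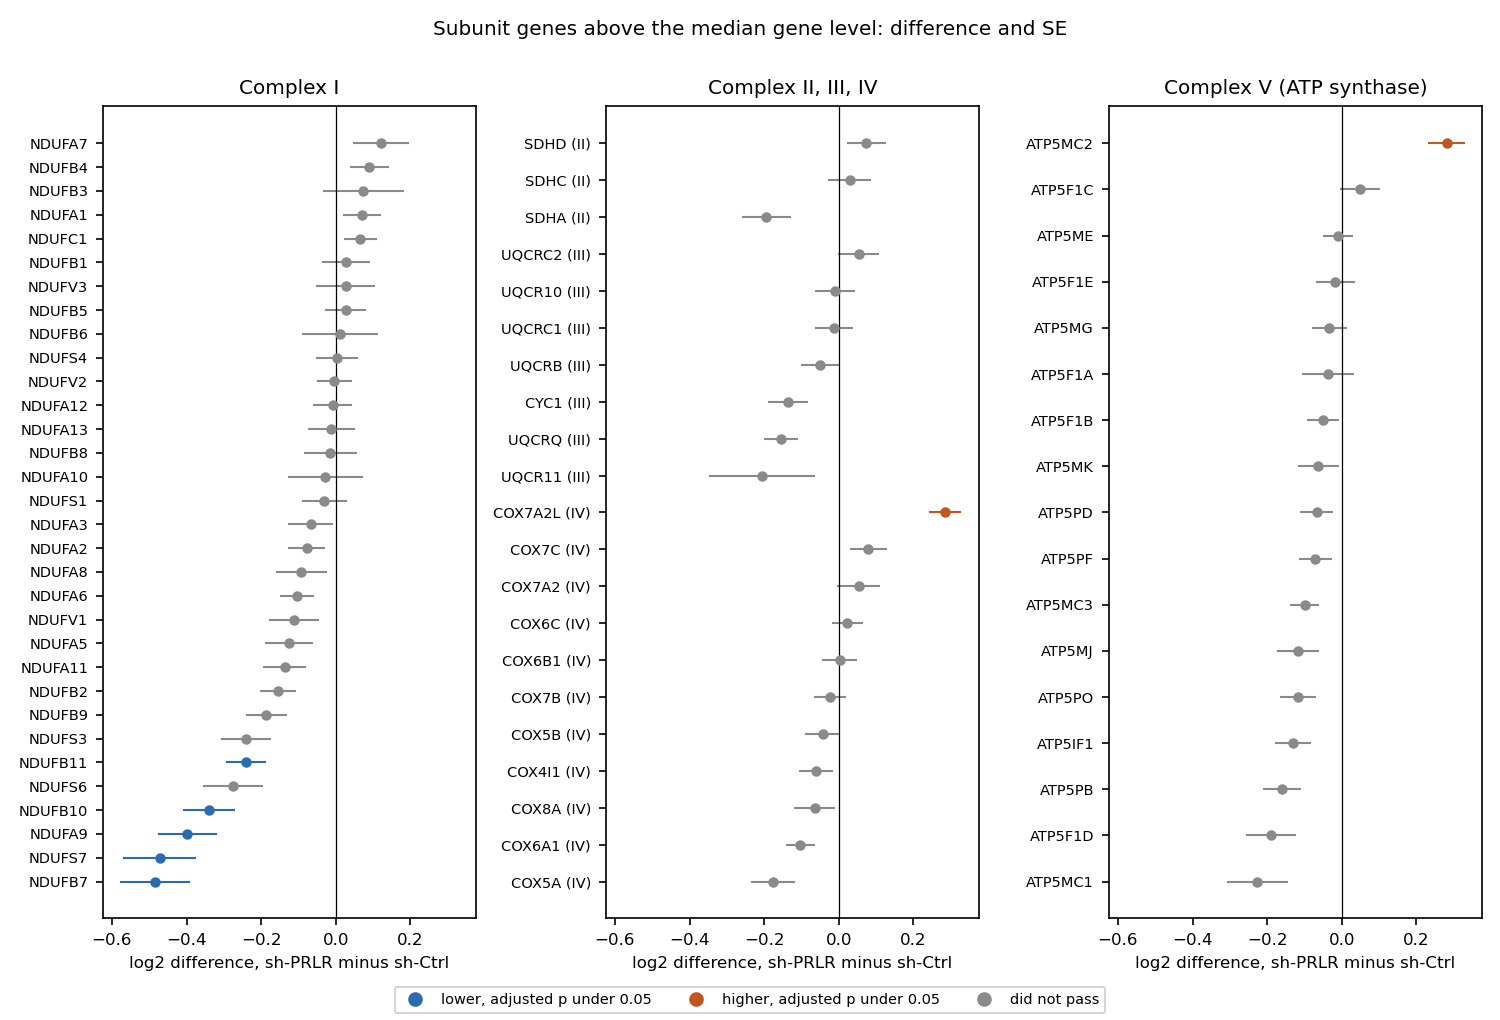
Difference of each of the 70 subunit genes above the median gene level, by complex. Points are log2 differences (sh-PRLR minus sh-Ctrl) and bars are the SE from limma, with genes that passed in colour. The 5 blue points are all in complex I and the 2 orange points are COX7A2L and ATP5MC2.

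Promoter sequences of 4 genes that passed are shown first, because factors of the NRF1 and ETS families are the textbook regulators of this gene set. They cover the 150 bases before a start listed in RefSeq (GRCh38.p14), 5′ to 3′ on the gene's strand, for the falling genes NDUFA9 (chr12:4648964-4649113, plus strand) and NDUFB7 (chr19:14572067-14572216, minus strand) and the rising genes COX7A2L (chr2:42368958-42369107, minus strand) and ATP5MC2 (chr12:53676331-53676480, minus strand). Capitals mark a match to the NRF1 motif in NDUFA9 and to the ETS motif in NDUFB7. Of the falling genes only NDUFA9 and NDUFB7 had a match in these 150 bases. NDUFS7, NDUFB10 and NDUFB11, which are not shown, had none there. NDUFA9 and NDUFB7 have 1 listed start, COX7A2L has 2 and ATP5MC2 has 3, and of several starts the one furthest upstream is shown. For ATP5MC2 it lies 5093 bases inside the gene's annotated bounds. None of the motifs searched was found at any listed start of COX7A2L or ATP5MC2. Which start the cells use was not tested.
NDUFA9: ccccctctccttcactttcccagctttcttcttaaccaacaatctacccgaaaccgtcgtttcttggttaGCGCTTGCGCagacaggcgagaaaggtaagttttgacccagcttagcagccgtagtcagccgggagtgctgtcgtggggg
NDUFB7: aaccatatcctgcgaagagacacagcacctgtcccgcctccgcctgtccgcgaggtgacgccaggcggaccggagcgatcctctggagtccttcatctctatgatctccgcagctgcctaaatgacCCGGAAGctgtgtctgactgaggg
COX7A2L: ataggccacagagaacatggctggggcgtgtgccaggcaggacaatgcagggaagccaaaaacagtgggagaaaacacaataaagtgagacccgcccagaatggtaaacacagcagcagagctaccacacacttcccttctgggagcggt
ATP5MC2: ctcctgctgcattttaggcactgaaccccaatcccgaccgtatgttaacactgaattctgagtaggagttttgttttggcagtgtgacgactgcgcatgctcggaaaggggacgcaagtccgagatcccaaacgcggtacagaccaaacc

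In all, 4 motifs were searched on both strands of windows of 300 bases, 250 before to 50 after the start, which were found for 65 of the 77 genes. For the 9 of these with several listed starts, and for other genes likewise, the start furthest upstream was used. The NRF1 motif (GCGCA, any base, GCGC) was found in 16 of the 65 windows (24.6%), against 6.29% of all 27305 genes in the table and 8.80% of the 15384 that were tested here. The ETS motif CCGGAAG, as read by GABP, was found in 18 (27.7%) against 10.6% and 14.3%, the YY1 motif AAGATGGC in 10 (15.4%) against 3.01% and 3.97%, and the estrogen-related receptor motif TCAAGGTCA in 1 (1.54%) against 0.355% and 0.260%. Counting every listed start, the motifs were found in 16, 19, 11 and 1 of the 65 genes, against 9.90%, 16.6%, 4.75% and 0.351% of genes tested. A base could count for more than 1 motif. NDUFA9 held the NRF1 and the YY1 motif, NDUFB7 the ETS motif and NDUFS7 the YY1 motif, with both YY1 matches outside the 150 bases described above, and NDUFB10, NDUFB11, COX7A2L and ATP5MC2 held none of the 4. Among subunit genes above the median level, the median difference was -0.0677 for the 15 with the NRF1 motif and -0.0399 for the 46 without, -0.0614 for 18 with the ETS motif and -0.0278 for 43 without, and -0.0872 for 10 with the YY1 motif and -0.0334 for 51 without. These medians were not tested against each other. A match describes letters in the window and nothing more.

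In complex I, 22 of 32 genes had a lower mean in sh-PRLR, and the genes that fell lie in the Q module and the membrane arm. NDUFS7 carries the last iron-sulfur cluster before ubiquinone and NDUFA9 is an accessory subunit at the joint of the Q module and the membrane. NDUFB7, NDUFB10 and NDUFB11 are accessory subunits of the distal membrane arm, of which NDUFB7 and NDUFB10 face the intermembrane space. NDUFB7 read 9.66, 9.79 and 9.53 on the control arrays and 9.22, 9.18 and 9.13 on the knockdown arrays, so that all 3 knockdown arrays were lower than every control. Its mean fell from 9.66 ± 0.13 to 9.18 ± 0.04, a difference of -0.49 with an SE of 0.09 (limma adjusted p = 0.0111). NDUFS7 read 9.98, 10.08 and 10.16 on the control arrays and 9.41, 9.71 and 9.68 on the knockdown arrays, again without overlap, with sh-PRLR replicate 1 lowest. The difference was -0.47 with an SE of 0.10 (limma adjusted p = 0.0149).

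NDUFA9 had the same array pattern as NDUFS7, with sh-PRLR replicate 1 lowest: 11.16, 11.23 and 11.28 in sh-Ctrl against 10.65, 10.89 and 10.93 in sh-PRLR. The mean fell from 11.22 ± 0.06 to 10.83 ± 0.15, a difference of -0.40 with an SE of 0.08 (limma adjusted p = 0.0132). For NDUFB10 the values were 12.76, 12.92 and 12.87 on the control arrays and 12.59, 12.59 and 12.36 on the knockdown arrays. Here sh-PRLR replicate 3 was lowest, the groups did not overlap, and the difference was -0.34 with an SE of 0.07 (limma adjusted p = 0.0143). NDUFB11 changed least of the 5, from 12.28, 12.21 and 12.20 in sh-Ctrl to 12.06, 11.95 and 11.96 in sh-PRLR. Its difference of -0.24 was also the one most often lost, in 7 of 13 alternative settings (limma adjusted p = 0.0199).

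**Figure D2:**
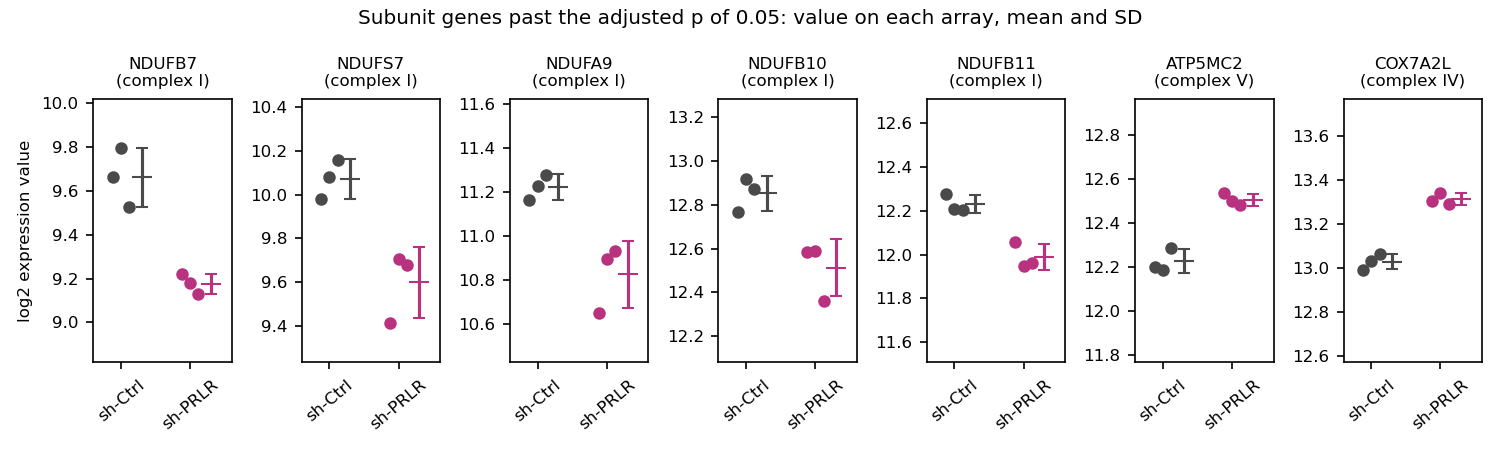
Log2 expression values of the 7 subunit genes that passed, 1 point for each array, with the group mean and SD beside the points. The panels have different ranges of equal width, so distances but not heights compare between genes. In each panel the 3 sh-PRLR points lie wholly below (NDUFB7, NDUFS7, NDUFA9, NDUFB10, NDUFB11) or wholly above (ATP5MC2, COX7A2L) the 3 sh-Ctrl points.

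Just outside the threshold were more complex I genes. NDUFS3, which with NDUFS7 is a core subunit of the Q module, read 11.70, 11.83 and 11.84 with the scrambled hairpin and 11.44, 11.62 and 11.59 with knockdown, which differ by -0.24 without overlap (limma adjusted p = 0.0543). NDUFS6, an accessory subunit of the N module that binds zinc, differed by -0.27 (limma adjusted p = 0.0698), NDUFB9 by -0.19 (0.0713) and NDUFB2 by -0.15 (0.0884), each without overlap. The 3 measured N module subunits that take electrons from NADH showed smaller differences, -0.11 for NDUFV1, -0.03 for NDUFS1 and under 0.01 in size for NDUFV2, and their groups overlapped. NDUFV2 read 13.28, 13.22 and 13.32 against 13.32, 13.21 and 13.27. Within the membrane arm the 18 subunits ranged from -0.49 for NDUFB7 to 0.09 for NDUFB4, with 11 means lower and 7 higher. The highest difference of complex I was 0.12 in NDUFA7, a Q module accessory subunit, with overlapping groups (limma adjusted p = 0.427). NDUFB1, of the membrane arm, read 13.64, 13.77 and 13.89 against 13.87, 13.78 and 13.73. NDUFC1 was the only complex I gene with all sh-PRLR values above sh-Ctrl, by 0.07, and did not pass.

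None of the measured complex II and III genes passed. SDHA, the flavoprotein that oxidises succinate, read 11.25, 11.31 and 11.45 with the scrambled hairpin and 11.11, 11.20 and 11.10 with knockdown, which differ by -0.19 without overlap (limma adjusted p = 0.115). The membrane anchors SDHC and SDHD had means higher by 0.03 and 0.07, with overlap for both. SDHC was read by 7 probe sets, of which 3 had all sh-PRLR values above sh-Ctrl and none passed. In complex III, 6 of 7 means were lower in sh-PRLR. UQCRQ, an accessory subunit bound to cytochrome b, read 13.71, 13.82 and 13.80 against 13.58, 13.65 and 13.64 and so differed by -0.15 (limma adjusted p = 0.0710), and CYC1, the catalytic cytochrome c1, differed by -0.14 without overlap (0.179). UQCR11 had the lowest difference, -0.21, but its arrays varied most, from 13.13 to 13.67 in sh-Ctrl and from 12.98 to 13.48 in sh-PRLR (limma adjusted p = 0.480). The core protein UQCRC2 was at 0.05 and UQCRB, an accessory subunit, at -0.05, with overlap.

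Of the 17 complex IV genes COX7A2L alone passed. COX7A2L, also called SCAF1, is related to COX7A2 and joins complexes III and IV in supercomplexes. It read 12.99, 13.03 and 13.06 on the control arrays and 13.30, 13.34 and 13.29 on the knockdown arrays, so that every knockdown array was above every control by more than the spread in either group. Its mean rose from 13.03 ± 0.03 to 13.31 ± 0.03, a difference of 0.28 with an SE of 0.04 (limma adjusted p = 0.00340), the smallest p among the subunit genes. Under median centring of the arrays the difference of COX7A2L and that of ATP5MC2 kept their sign but no longer passed. COX7A2, its relative within the complex, had overlapping values and a difference of 0.05. The gap between COX7A2L and the mean of the other 10 complex IV genes above the median level was -0.67, -0.66 and -0.70 on the control arrays but -0.36, -0.34 and -0.38 on the knockdown arrays, which is 0.32 higher and takes out any shift shared by a whole array.

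The 10 widely expressed complex IV subunits ranged from -0.18 to 0.08. COX5A, which faces the matrix, read 13.71, 13.71 and 13.78 on the control arrays and 13.42, 13.64 and 13.61 on the knockdown arrays (difference -0.18, limma adjusted p = 0.108). COX6A1 was lower on all 3 sh-PRLR arrays (difference -0.10, limma adjusted p = 0.151). COX4I1 differed by -0.06, COX8A by -0.06, COX7B by -0.02, COX6B1 by 0.00 and COX7C by 0.08, all with overlap. The tissue-restricted forms COX4I2 (lung), COX6A2 and COX7A1 (heart and muscle), and COX6B2, COX7B2 and COX8C (testis) all lay below the median gene level. Their values on single arrays ran from 1.02 to 6.67, they varied by up to several units between replicates, and none passed, so at this signal no switch between forms was detectable.

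In the ATP synthase, 15 of 18 means were lower in sh-PRLR and the single gene that passed was higher. The rotor's c subunit is made from 3 genes, ATP5MC1, ATP5MC2 and ATP5MC3, which differ in their import sequence and give the same mature protein. ATP5MC2 read 12.20, 12.19 and 12.29 on the control arrays and 12.54, 12.50 and 12.48 on the knockdown arrays. All knockdown arrays were above all controls, and the mean rose from 12.23 ± 0.06 to 12.51 ± 0.03, a difference of 0.28 with an SE of 0.05 (limma adjusted p = 0.00726). The other c subunit genes were lower on every sh-PRLR array without passing. ATP5MC1 was at 10.003, 10.22 and 10.23 and then 9.91, 9.94 and 9.93 (difference -0.23, limma adjusted p = 0.133), and ATP5MC3 was at 13.71, 13.73 and 13.75 and then 13.62, 13.65 and 13.62 (difference -0.10, limma adjusted p = 0.174).

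The gap between ATP5MC2 and ATP5MC3 within an array moved from -1.51, -1.55 and -1.46 in sh-Ctrl to -1.09, -1.15 and -1.14 in sh-PRLR, by 0.38. Against ATP5MC1 the gap moved by 0.51, from 2.20, 1.97 and 2.06 to 2.63, 2.56 and 2.55, while the gap between ATP5MC3 and ATP5MC1 moved by 0.13 with overlap. ATP5MC2 was thus higher relative to both other c subunit genes on all 3 sh-PRLR arrays. The rise rests on probe set 208764_s_at, whose suffix marks possible matches to related transcripts. The other ATP5MC2 probe set was below the median gene level in both groups (means 3.59 and 3.19), so that a mean of all probe sets and a fit without such suffixes gave differences of -0.06 and -0.39 that did not pass.

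Of the F1 head, which makes ATP, ATP5F1D was lower on all sh-PRLR arrays (difference -0.19, limma adjusted p = 0.127). ATP5F1A and ATP5F1B, the alpha and beta subunits of the head, differed by -0.04 and -0.05 with overlap. ATP5F1A read 14.40, 14.51 and 14.65 against 14.60, 14.47 and 14.38. The 4 genes of the peripheral stalk, which holds the head against the rotor, had means lower by differences of -0.16 to -0.07, led by ATP5PB at -0.16 (limma adjusted p = 0.0927), and 0 of 4 passed. ATP5IF1, the inhibitor of ATP hydrolysis, differed by -0.13 without overlap (limma adjusted p = 0.154). ATP5MF was read with a single symbol by 1 probe set below the median gene level, and its 3 and 3 values overlapped widely.

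Averaged over the genes above the median level, complex I was lower on every sh-PRLR array. Its mean level was 12.17, 12.20 and 12.25 with the scrambled hairpin and 12.12, 12.11 and 12.10 with knockdown, so that the groups differed by -0.0966. Complex IV was at 13.60, 13.63 and 13.69 against 13.63, 13.65 and 13.63 and so differed by -0.0027 with overlap, and without COX7A2L its difference was -0.0315, also with overlap. The differences of complexes II, III and V were -0.0302, -0.0738 and -0.0623. Since all genes of an array share its scaling, the gap between complexes within an array was also compared. The gap between complex I and complex IV without COX7A2L was -1.49, -1.49 and -1.51 on the control arrays but -1.55, -1.57 and -1.56 on the knockdown arrays, a mean difference of -0.0652 without overlap. Without the 5 genes that fell, which their differences had picked, this gap differed by -0.0113 and the groups overlapped. For complexes II, III and V the gap to complex IV differed by 0.0013, -0.0423 and -0.0308, all with overlap.

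**Figure D3:**
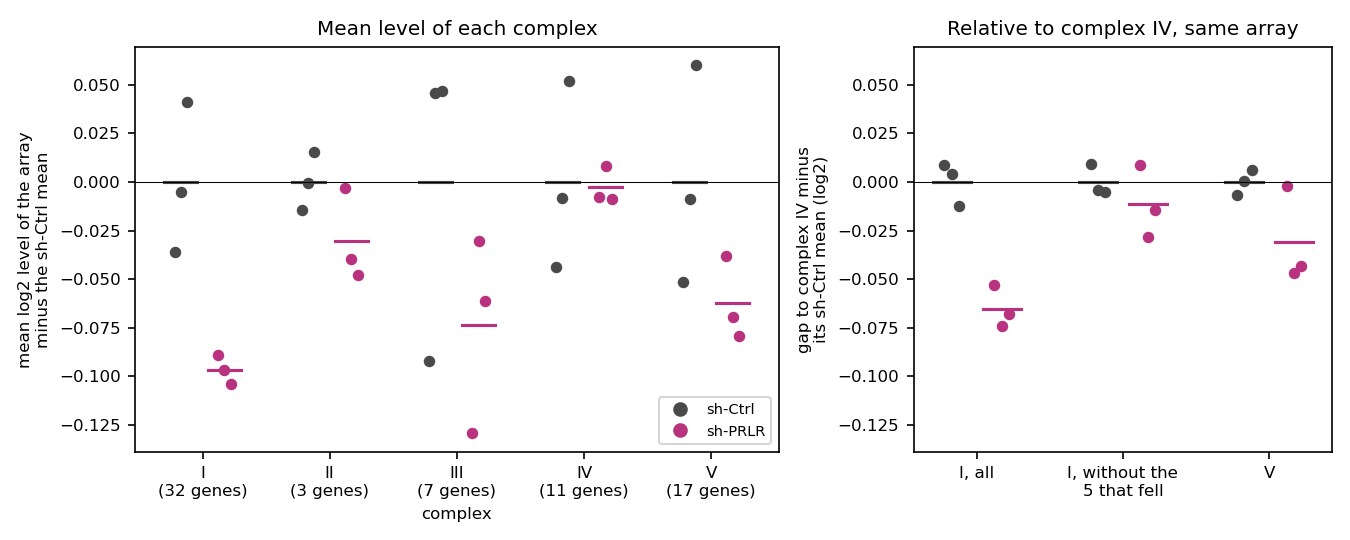
Mean log2 level of each complex on each array (left) and the gap between a complex and complex IV without COX7A2L on the same array (right), both given relative to the sh-Ctrl mean. Points are arrays and lines are group means. The complex I points of sh-PRLR lie below all sh-Ctrl points in both panels, and overlap with them once the 5 genes that fell are left out.

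Larger differences were found among the subunit genes of weaker signal. The 23 genes with mean levels from 9.42 to 12.39 had a median difference of -0.0922, and 4 of them passed lower and 1 higher. In the 23 genes from 12.40 to 13.27 the median was -0.0139, with 1 lower and 1 higher, and in the 24 genes from 13.35 to 14.50 it was -0.0464 with none. The share of lower means was alike, 16 of 23, 16 of 23 and 18 of 24. Across the 70 genes, level and difference had a Spearman correlation of 0.24, and across the 9887 genes above the median level it was 0.097. These are descriptions over genes that share the same 6 arrays. Whether the signal level had a part in the differences was not tested.

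**Figure D4:**
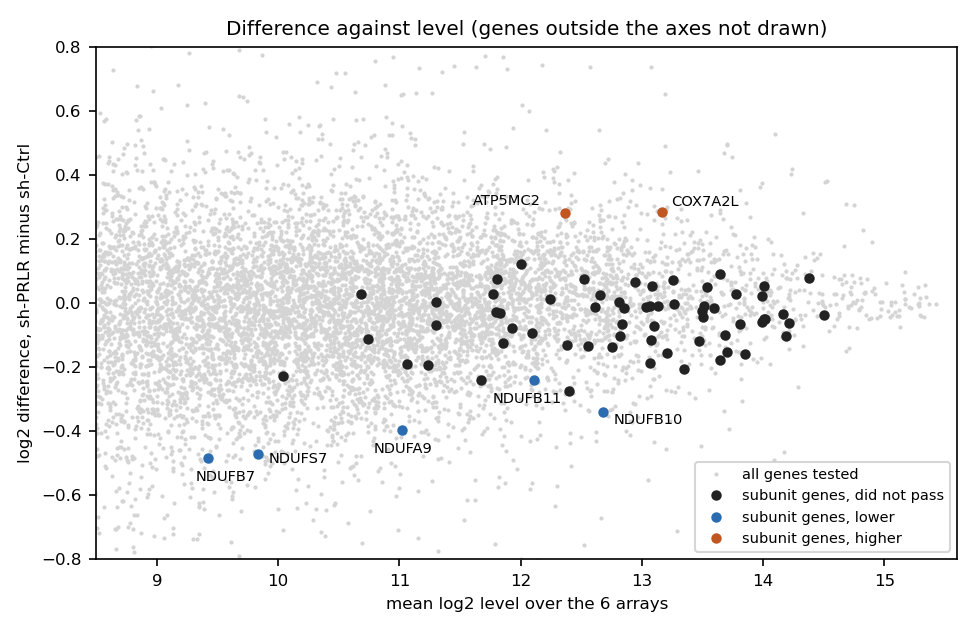
Log2 difference (sh-PRLR minus sh-Ctrl) against the mean log2 level over the 6 arrays, for subunit genes (large points) and for all genes tested (small grey points). Subunit genes spread less than the grey points around them, and the 5 that fell reach from a level near 9.42 (NDUFB7) to one above 12 (NDUFB10).

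The probe sets of a gene did not always move together. Of the 41091 probe sets with a single symbol, 4.67% passed in a fit over all of them in either direction, and of the 151 subunit probe sets 8 passed lower and 3 higher. For NDUFB10 both probe sets fell, by a difference of -0.34 each, 223112_s_at as above and 228301_x_at from 10.96, 10.95 and 11.07 to 10.78, 10.63 and 10.55 (limma adjusted p = 0.0306 over probe sets). NDUFA9, NDUFB11 and COX7A2L were read by 1 probe set each, and the second probe sets of NDUFB7 and NDUFS7 lay below the median gene level with overlapping groups. ATP5IF1 differed between probe sets: 223339_at fell from 9.90, 10.04 and 10.03 to 9.31, 9.26 and 9.49 (difference -0.64, limma adjusted p = 0.00340 over probe sets), while the probe set that stands for the gene gave -0.13. UQCR10 was similar, since 228142_at fell from 9.67, 9.58 and 9.65 to 9.06, 9.16 and 9.25 (difference -0.48, limma adjusted p = 0.0128 over probe sets) and its main probe set gave -0.01. For COX7C, 201134_x_at rose from 14.16, 14.19 and 14.21 to 14.32, 14.38 and 14.31 (difference 0.15, limma adjusted p = 0.0449 over probe sets), against 0.08 for its main probe set. Which transcripts these probe sets read was not tested.

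Among 113 other genes that build or feed the chain, in 9 lists, 19 passed lower (16.8%) and 1 higher (0.885%), against 4.32% and 3.34% of all genes. Among the 72 of them with a mean above 10, 15 passed lower (20.8%) and 0 higher, against 9.27% and 9.60% of all genes above 10. The mean was lower for 69 of the 113, with a median difference of -0.0379. The lists were drawn up with earlier results of these data known, so the counts describe them only. With limma's default settings 0 of the 113 passed (28 at an unadjusted p under 0.05), and under median centring 5 passed lower. Leaving out any array but sh-PRLR replicate 1 left 7 to 12 that passed lower, and without sh-Ctrl replicate 2 the share above 10 was 5.56%, against 4.24% of all genes. In the list of pyruvate dehydrogenase and the citric acid cycle, which make the NADH and succinate that complexes I and II use, 6 of 15 genes passed lower, none higher, and 13 of 15 means were lower, with a median of -0.18. DLAT, the acetyltransferase of pyruvate dehydrogenase, fell from 11.30 ± 0.03 to 10.94 ± 0.10 (difference -0.37, limma adjusted p = 0.00701), IDH3B, of isocitrate dehydrogenase, by a difference of -0.27 (0.0115), DLD, the shared dihydrolipoamide dehydrogenase, by -0.22 (0.0171) and SUCLG1, of succinyl-CoA ligase, by -0.26 (0.0242).

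Of 18 genes for electron carriers and the synthesis of coenzyme Q, 3 passed lower, none higher, with a median of -0.0948. PDSS1 and PDSS2 together form the enzyme that makes the isoprenoid tail of coenzyme Q. PDSS1 fell from 9.70 ± 0.12 to 8.96 ± 0.03 (difference -0.74, limma adjusted p = 0.00120) and PDSS2 from 10.03 ± 0.14 to 9.46 ± 0.11 (difference -0.57, limma adjusted p = 0.00622), the lowest differences among the pathway genes that passed. Without probe sets named _x_at or _s_at the difference of PDSS1 turned to 0.63 and did not pass. GPD2, the glycerol phosphate dehydrogenase that feeds electrons to ubiquinone, fell by a difference of -0.28 (limma adjusted p = 0.0237). Of 6 measured carriers of adenine nucleotides and phosphate, 2 passed lower, the outer membrane channel VDAC3 (difference -0.27, limma adjusted p = 0.00931) and the ADP/ATP carrier SLC25A4 (difference -0.36, limma adjusted p = 0.0177), with a list median of -0.0056. Averaged over its probe sets, SLC25A4 turned to 0.19.

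The few assembly factors that passed were mostly lower, where 4.32% of all genes passed lower and 3.34% higher. Counting the arrays was less one-sided. All sh-PRLR values lay above all sh-Ctrl values in 3 complex I, 1 complex II, 0 complex III, 3 complex IV and 2 ATP synthase factors. They lay below in 2, 0, 3, 3 and 1, in the same order. Over all genes these patterns were found in 11.7% and 14.1%. Of 18 complex I factors, 2 passed lower and the median was -0.0243: NDUFAF6 (difference -0.45, limma adjusted p = 0.00599) and NDUFAF8 (difference -0.40, limma adjusted p = 0.0388), both needed for early steps of assembly. The only pathway gene that rose was SDHAF4, a chaperone that binds SDHA before complex II is joined, from 9.08 ± 0.09 to 9.71 ± 0.01 (difference 0.62, limma adjusted p = 0.00190), with a median of 0.0596 over 4 complex II factors. Of 6 complex III factors LYRM7, which matures the Rieske protein (difference -0.37, limma adjusted p = 0.0149), and TTC19 (difference -0.18, limma adjusted p = 0.0457) fell, with a median of -0.20. Of 23 complex IV factors COA7 (difference -0.39, limma adjusted p = 0.0151) and the copper factor COX11 (difference -0.24, limma adjusted p = 0.0229) fell, with a median of -0.0053. ATPAF1, the chaperone that receives the beta subunit of the F1 head, was the 1 of 6 ATP synthase factors that passed (difference -0.39, limma adjusted p = 0.00269), and the median was -0.0809. Without probe sets named _x_at or _s_at, ATPAF1 turned to 0.28 and NDUFAF8 to 0.39. Of 17 regulators of mitochondrial gene expression only TFAM passed, and the median was -0.0131. All sh-PRLR values lay above sh-Ctrl in 4 of the 17 and below in 5. Among factors of the motifs searched, NRF1, GABPA, YY1 and ESRRA had means higher by 0.21, 0.10, 0.07 and 0.12. The PGC-1 coactivators PPARGC1A, PPARGC1B and PPRC1 differed by -0.80, -0.28 and -0.03, and PPARGC1A lay below the median gene level. TFAM, which packs mitochondrial DNA and helps to start its transcription, fell from 11.38 ± 0.13 to 11.04 ± 0.11 (difference -0.34, limma adjusted p = 0.0316). Of 14 alternative settings, SDHAF4 passed in 13, DLAT, NDUFAF6 and PDSS2 in 12, GPD2 and TFAM in 6, and COX11 and TTC19 in 4.

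**Figure D5:**
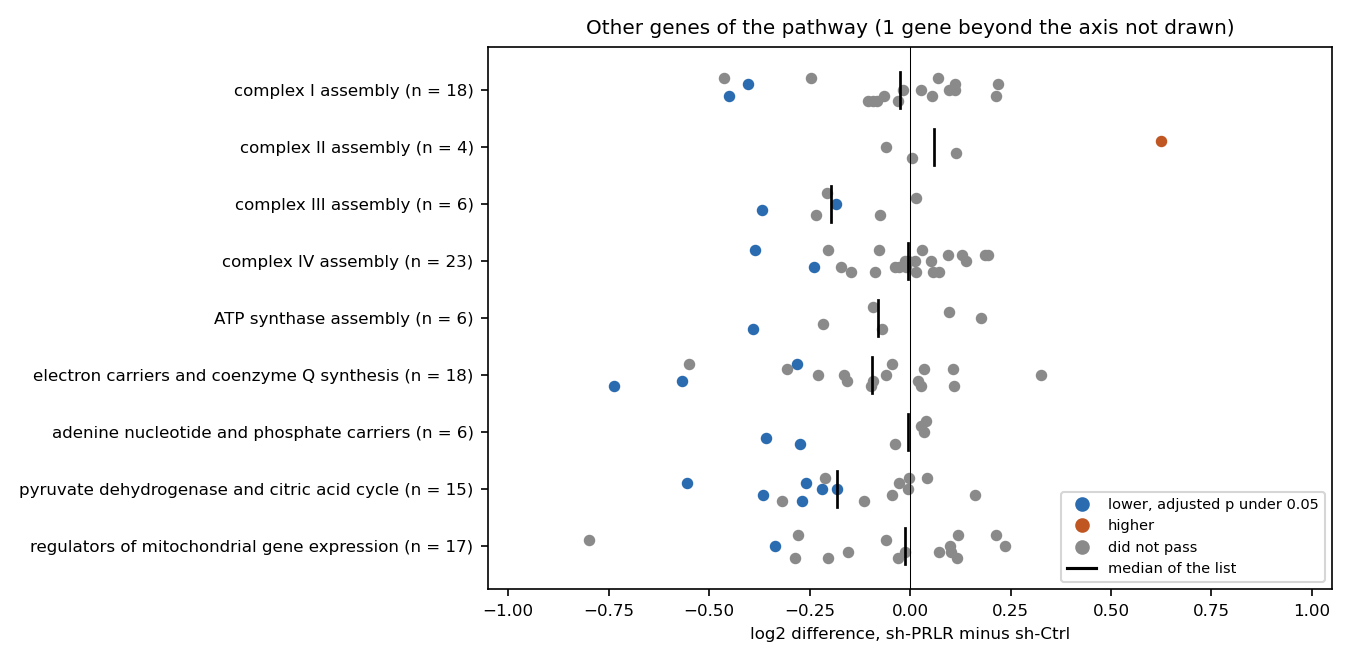
Log2 differences (sh-PRLR minus sh-Ctrl) of the 113 other pathway genes in 9 lists, 1 point for each gene (1 lies beyond the axis and is not drawn) and a line at the median of each list. The blue points (passed lower) outnumber the 1 orange point, SDHAF4, and 6 of them are in the list of pyruvate dehydrogenase and the citric acid cycle.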

How the data were processed

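Trizol was used for total RNA and biotin for the label. More than 1 amplification kit is listed per the labels. The deposited values are log2 expression values, 1 for each of 54675 probe sets and array, and the submitters' processing notes list MAS5, RMA and affy with no role or version. In the values, the linear mean with 2% trimmed was 500 on all arrays, so no further scaling was applied. No detection call was used.

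Of the probe sets, 41091 carried 1 symbol in the platform annotation, 1801 several and 11777 none, and 62 Affymetrix controls were left out. The brightest probe set stood for each of 19775 genes. The test was limma 3.58.1 under R 4.3.3 (lmFit, eBayes with trend and robust, two-sided, Benjamini-Hochberg over all genes, threshold 0.05). Replicate numbers were not used as pairs: deviations of same-numbered arrays correlated at -0.0243, 0.0044 and -0.0115, and the labels name no shared culture or day. Alternatives were other variance settings, normalisations, probe set rules, a filter on dim genes, the replicate block and each array left out. Promoter windows came from RefSeq (GRCh38.p14), searched with Python 3.11.15. Figures were drawn with matplotlib 3.10.9.

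Members and gene lists were chosen with earlier results of these data known. Genes were named where they passed, where they had the highest signal or the highest or lowest difference of a complex, where a single probe set passed, as tissue-restricted forms and their partners, and up to 4 of each pathway list by smallest p. Other genes that are named lay just outside the threshold, complete a module or are known regulators of the gene set, and were chosen after their values were seen.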

Additional observations from a re-analysis of the deposited data

How the results depend on the processing

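Leaving out each array in turn gave 665 to 1322 genes that passed in place of 1514, 0 to 6 subunit genes lower in place of 5, 2 to 3 higher in place of 2, and 7 to 14 pathway genes lower in place of 19. The median difference was then -0.072 to -0.0252 over the subunit genes, -0.085 to -0.0462 in complex I, -0.0203 to 0.0522 in complex II, -0.0849 to -0.0055 in complex III, -0.0611 to 0.0066 in complex IV and -0.091 to -0.0517 in complex V. With default limma settings 4 genes passed, with 0 subunit and 0 pathway genes. Median centring left 504 genes (28.4% of them higher, against 43.6%), 3 subunits lower, 0 higher and 5 pathway genes lower. It moved the medians to -0.0834 over subunits, -0.0828 in complex I and -0.0041 in complex II. Centring shifts all genes of an array alike, and the median over all genes moved from -0.0013 to -0.035. The array medians that it makes equal also differed within groups, from 5.855 to 5.993 in sh-Ctrl and from 5.859 to 6.073 in sh-PRLR. Quantile normalisation gave 13 subunits lower. Without the dimmest 40% of genes, 9 subunits were lower and 3 pathway genes higher. The mean of all probe sets gave 609 genes, 1 subunit higher, 3 pathway genes lower, and medians of 0.216 in complex II and -0.1543 in complex III. It turned ATP5MC2 to -0.0568, NDUFAF8 to 0.1765 and SLC25A4 to 0.19. Without _x_at and _s_at probe sets, 1011 genes, 3 subunits lower, 1 higher and 11 pathway genes lower passed, with medians of -0.0832, 0.1575, -0.1353 and 0.0129 in complexes I to IV, and ATP5MC2 turned to -0.3942, ATPAF1 to 0.2794, NDUFAF8 to 0.3897 and PDSS1 to 0.6334. With the replicate number as a block, 1090 genes, 6 subunits lower, 2 higher, 14 pathway genes lower and 1 higher passed, and 7 of the 7 subunits that passed before were kept. They also numbered 7 of 7 under quantile normalisation, the dim filter and trend without robust, 4 under the mean of probe sets and 3 under median centring. Without _x_at and _s_at probe sets 5 of the 7 were still read, and 2 of them, NDUFA9 and COX7A2L, were kept. Leaving out sh-Ctrl replicate 2 kept 2, leaving out sh-Ctrl replicate 3 kept 3, and leaving out any other array kept 6 or 7. The causes of the changes under these settings were not tested. Weak signals limit what can be seen: the median SD between replicates was 0.2108 over all genes against 0.0612 over the 70 subunit genes above the median level.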
